A study of Ovis aries with 16 samples.

Results

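The genes described here are HBB, AHSP and CA1, which mark red blood cells, measured in the frontal cortex of 16 late-gestation fetal sheep. A probe was a member when the files or the sheep reference table gave it the name of 1 of the 3 genes, and 6 of the 15008 probes met this rule. They belong to 3 of the 1025 different genes with a name on the array.

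Each fetus carried vascular catheters and was put on 1 array. There were 3 normoxia control fetuses, 4 normoxia + ketamine fetuses, 5 hypoxia control fetuses and 4 hypoxia + ketamine fetuses. Hypoxia was a 30 min fall in the oxygen of the ewe's inspired gas, normoxia was the same period without it, and cortex was taken 24 h after onset, after 23.5 h of recovery. Ketamine, a blocker of NMDA receptors, was given to the fetus at 3 mg/kg before the stimulus, and control means that none was given. Most of the fetuses were twins, and the labels do not say which of them shared a ewe, so the p-values measure the spread between fetuses. The study asked whether ketamine alters the response of the cortex to hypoxia.

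For 1 fetus the labels contradict each other. The title and code of hypoxia control replicate 1 give that group, which was kept, but the source name and characteristics give normoxia and ketamine. Called results that use this fetus are therefore also given without it, or after moving it to the normoxia + ketamine group, where that matters to the call. The arrays were on 2 slides scanned on 1 day, each group was on both slides, and between 69.19 and 76.91% of the spots of an array were well above background. Of the cell type markers fixed for the tissue, the astrocyte genes AQP4, GFAP and GJA1 were well above background on 16 of 16 arrays and FGFR3 on 1. In contrast, 0 of 15 neuron and 0 of 10 oligodendrocyte markers had a named probe.

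Hemoglobin is built from alpha and beta chains, each holding a heme. The beta chains of sheep come from a cluster of related genes, with a fetal form that gives way to the adult form (HBB) around birth. AHSP, the alpha hemoglobin stabilizing protein, is a chaperone that holds free alpha chains in developing red cells. CA1 is a carbonic anhydrase of red cells, which turns carbon dioxide into bicarbonate. Brain tissue that has not been flushed keeps the blood of its vessels, and reticulocytes in that blood still carry globin RNA. In whole tissue, fewer red cells and less of this RNA per cell cannot be told apart.

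HBB was read by 2 probes that share no sequence run, and AHSP by 2 probes that are nearly the same. The probe that stands for HBB is listed for the HBB transcript and also for that of the related beta-C globin gene (LOC100134870), so the signals of those genes cannot be told apart with it. The second HBB probe was designed from an expressed sequence tag that the files name HBB. The AHSP probes overlap by 59 of their 60 bases, shown in capitals, and so are nearly a repeat measurement of a single stretch. The files place the probes at no genome position, so none is given. The sequences of the probes that stand for HBB and AHSP, and of the overlapping AHSP probe, are shown because the readings below turn on them.
HBB probe: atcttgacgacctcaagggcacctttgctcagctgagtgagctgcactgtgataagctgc
AHSP probe: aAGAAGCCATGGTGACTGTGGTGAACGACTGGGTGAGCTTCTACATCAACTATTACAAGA
AHSP overlapping probe: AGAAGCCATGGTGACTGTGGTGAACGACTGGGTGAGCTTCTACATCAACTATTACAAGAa

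CA1 could not be measured in this tissue. Its 2 probes were well above background on 0 of 16 arrays, with raw signals of 38 to 62.8 and 32.4 to 53.2. Their normalized log2 intensities lay between 6.55 and 6.91 and between 6.43 and 6.79, so no fold change is given for CA1. A probe that the files describe as the fetal hemoglobin beta subunit, which the rule did not take in because it carries no gene name, was well above background on 16 of 16 arrays and is used beside HBB. Of the alpha globin genes looked for, 0 had a named probe.

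HBB differed widely from fetus to fetus. Its raw signal ran from 6080 to 60700, and its log2 intensity from 12.63 to 15.94, a 9.92-fold range. The standard deviation over the 16 fetuses was 0.85 on the log2 scale, larger than that of 99.2% of all probes. On the second HBB probe the raw signal ran from 837 to 21400 and the log2 intensity from 9.93 to 14.61, a 25.6-fold range. Most of this spread lay within the groups, since the standard deviation around the group means was 0.90 on the first probe and 1.23 on the second. No member spot was saturated.

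In normoxia control, the log2 intensity of HBB was 14.77, 13.83 and 13.32. In normoxia + ketamine, it was 14.87, 13.93, 14.64 and 13.66. In hypoxia control, it was 13.72, 14.67, 13.17, 15.34 and 15.94. Hypoxia control thus held the 2 highest fetuses of all 16, and also 1 of the lowest. In hypoxia + ketamine, HBB was 14.66, 14.37, 14.17 and 12.63, and the last of these was the lowest of all. The ranges of all 4 groups overlapped.

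**Figure D1:**
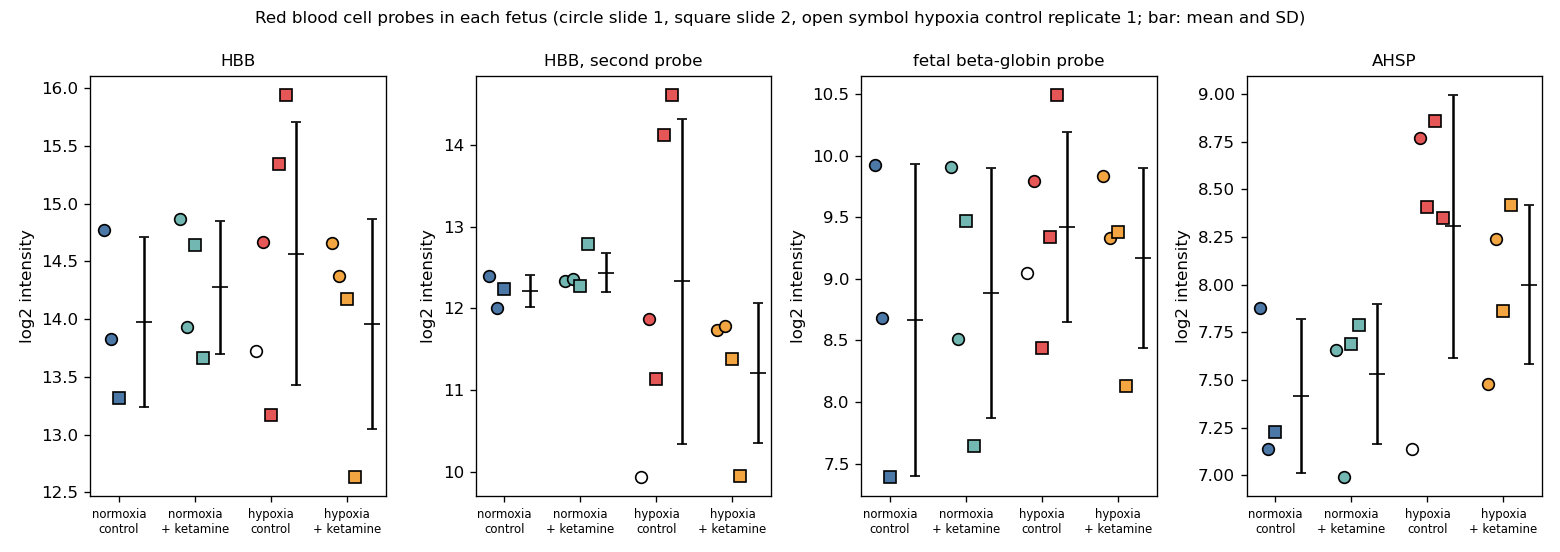
The log2 intensity of each probe (vertical axes, scales differ between panels) is plotted for every fetus by group, with the group mean and SD as bars. HBB overlaps in all groups, the second HBB probe is widely spread in hypoxia control, and AHSP lies between 8.35 and 8.86 in 4 of the 5 hypoxia control fetuses.

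HBB was not called in any comparison. The study's threshold, an unadjusted P under 0.05 in limma's moderated test, is what makes a call here, and 7.98% of all probes were called between hypoxia control and normoxia control, 3.34% higher and 4.64% lower. The hypoxia control mean was 14.57 ± 1.14 (SD, n = 5) against 13.98 ± 0.734 (SD, n = 3) for normoxia control. The log2 difference was 0.59 (SE 0.596, 95% interval -0.68 to 1.87, limma P = 0.336, adjusted P = 0.867, exact permutation p = 0.536). The interval takes in falls as well as rises larger than the one measured, so these fetuses set no narrow limit on HBB.

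Ketamine gave no called difference in HBB either. In normoxia the log2 difference of ketamine from control was 0.30 (SE 0.623, limma P = 0.638, exact permutation p = 0.571, with 2.31% of all probes called). In hypoxia it was -0.61 (SE 0.548, 95% interval -1.78 to 0.56, limma P = 0.281, exact permutation p = 0.413), where 9.06% of all probes were called. Hypoxia + ketamine and normoxia + ketamine differed by -0.32 (SE 0.577, limma P = 0.587, exact permutation p = 0.686, with 6.86% of all probes called). The interaction, which asks whether the hypoxia difference was changed by ketamine, was -0.91 (SE 0.83, limma's adjusted P = 0.861, with 6.35% of all probes called). HBB was also not called without hypoxia control replicate 1, where the differences of hypoxia control from normoxia control and of hypoxia + ketamine from hypoxia control were 0.80 and -0.82 and the interaction was -1.12.

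The second HBB probe was even over the normoxia fetuses and uneven over the hypoxia fetuses. Its log2 intensity was 12.39, 12.00 and 12.23 in normoxia control and 12.33, 12.36, 12.27 and 12.79 in normoxia + ketamine. It was 9.93, 11.87, 11.13, 14.12 and 14.61 in hypoxia control. It was 11.73, 11.78, 11.38 and 9.95 in hypoxia + ketamine. The standard deviation was 0.196 and 0.239 in the normoxia groups, and 1.99 and 0.86 in the hypoxia groups, a difference in spread that was not tested.

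On this probe all 4 hypoxia + ketamine fetuses lay below all 4 normoxia + ketamine fetuses. The log2 difference was -1.23 (SE 0.791), with an exact permutation p = 0.0286, the smallest that 4 against 4 allow, and limma P = 0.142, adjusted P = 0.819. With only these 2 groups in the fit the probe was called (SE 0.376). Groups did not overlap in that direction for 1.73% of all probes. With the doubtful fetus moved to normoxia + ketamine the difference was -0.73 and the groups overlapped. The first HBB probe gave -0.32 in the same comparison.

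Hypoxia + ketamine was lower than hypoxia control on the second HBB probe by a log2 difference of -1.12 (SE 0.751, limma P = 0.157, exact permutation p = 0.381). Without hypoxia control replicate 1 it was -1.72 (SE 0.638, limma P = 0.0177, adjusted P = 0.471), against 4.05% of all probes called lower, but the exact permutation p was 0.20. The lone fetus that decides this call had the lowest reading of all 16 on this probe. The first HBB probe was not called there.

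AHSP gave a low signal. Its raw signal ran from 64.1 to 381 and its log2 intensity from 6.99 to 8.86, a 3.67-fold range, with a standard deviation of 0.59. The offset compresses a signal this low, and the raw signal less local background, 44.1 to 362, ranged 8.2-fold. The probe was well above background on 16 of 16 arrays and the overlapping probe on 14 of 16. The log2 intensity was 7.88, 7.14 and 7.23 in normoxia control and 7.66, 6.99, 7.69 and 7.79 in normoxia + ketamine. In hypoxia control it was 7.14, 8.77, 8.41, 8.86 and 8.35. In hypoxia + ketamine it was 7.48, 8.24, 7.86 and 8.42. All hypoxia control fetuses but replicate 1 lay above every normoxia fetus, and hypoxia + ketamine overlapped both.

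AHSP was higher in hypoxia control than in normoxia control by the study's threshold. The means were 8.31 ± 0.689 (SD, n = 5) and 7.41 ± 0.401 (SD, n = 3), a log2 difference of 0.89 (SE 0.341, 1.85-fold, limma P = 0.02, adjusted P = 0.541, exact permutation p = 0.143). The groups overlapped through replicate 1. The overlapping probe gave 0.75 (SE 0.336, limma P = 0.042, exact permutation p = 0.143). So 2 of the 4 member probes above background were called higher, where 3.34% of all probes were. Both are the nearly identical AHSP probes, so these calls count as 1 result. No probe of the array passed Benjamini-Hochberg adjustment.

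Without hypoxia control replicate 1, the AHSP difference was 1.18 (SE 0.252, 2.27-fold, limma P = 0.000377, adjusted P = 0.182, exact permutation p = 0.0571, the smallest that 4 against 3 allow). The 4 remaining hypoxia control fetuses did not overlap the 3 normoxia control fetuses. Among all probes, 4.11% were called higher and 3.8% did not overlap upward in these fetuses. Within slide 1 the difference was 0.45 (2 against 2 fetuses) and within slide 2 it was 1.31 (3 against 1). The call was lost without normoxia control replicate 2 (0.75), without normoxia control replicate 3 (0.80), on the scanner's processed signal with quantile normalization (1.58, SE 0.758) and after normexp with arrays scaled to their 75th percentile (0.55, SE 0.588). Normexp had estimated a background far below 0 on 3 arrays, which lifted and compressed the dim spots. With the local background subtracted instead, AHSP was called with differences of 1.02 (SE 0.39, limma's adjusted P = 0.545) after quantile normalization and 1.11 (SE 0.38, adjusted P = 0.377) after 75th percentile scaling, and it ranged 4.41-fold and 4.75-fold between fetuses.

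Ketamine did not give a called difference in AHSP when all arrays were used. In hypoxia the log2 difference was -0.30 (SE 0.313, 95% interval -0.97 to 0.37, limma P = 0.347, exact permutation p = 0.460). Without replicate 1 of hypoxia control it was -0.60 (SE 0.234, limma P = 0.0235, adjusted P = 0.485, exact permutation p = 0.0857), against 4.05% of all probes called lower. In normoxia it was 0.12 (SE 0.357, limma P = 0.743, exact permutation p = 0.743). Hypoxia + ketamine exceeded normoxia + ketamine by 0.47 (SE 0.33, limma P = 0.179), and by 0.55 (SE 0.223, limma P = 0.0275, adjusted P = 0.608, exact permutation p = 0.111) after replicate 1 of hypoxia control was moved to normoxia + ketamine, where 3.56% of all probes were called higher. The interaction was -0.42 (SE 0.475, limma's adjusted P = 0.892), and -0.72 (SE 0.344) without replicate 1 of hypoxia control, not called either.

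In the order of the AHSP group means, hypoxia control (8.31), hypoxia + ketamine (8.00), normoxia + ketamine (7.53) and normoxia control (7.41), no neighboring pair differed at the threshold with all 16 arrays.

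**Figure D2:**
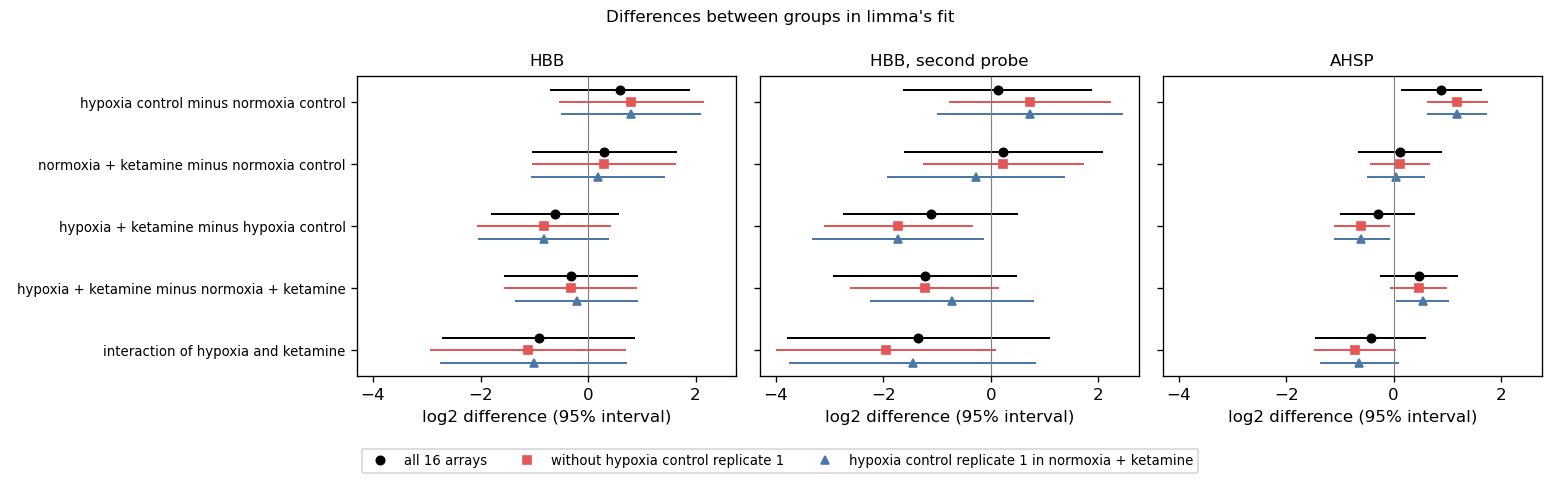
Log2 differences between groups (horizontal axis) with 95% intervals from limma are drawn for HBB, the second HBB probe and AHSP, with all 16 arrays, without hypoxia control replicate 1 and with that fetus moved to normoxia + ketamine. With all arrays only the AHSP interval for hypoxia control minus normoxia control, 0.16 to 1.62, lies clear of 0.

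Fetus by fetus, HBB and the fetal beta-globin probe rose and fell together, whereas the relation of either with AHSP was weaker in r and did not pass the threshold, a difference that was not tested. Over the 16 fetuses HBB and the fetal probe gave Pearson r = 0.84 (permutation p = 3e-05, adjusted p = 0.00018 over 6 relations) and Spearman rho = 0.89 (adjusted p = 0.00012). Without the 2 fetuses farthest from the median of HBB, r was 0.81. Within slide 1 and slide 2, r was 0.92 and 0.84, and on deviations from the group means it was 0.87. Among the hypoxia arrays r was 0.92 and among the normoxia arrays it was 0.97. Whether the probe that stands for HBB also reads the fetal transcript was not tested, so the 2 probes cannot be taken as separate genes. The fetal probe itself ranged 8.58-fold, from 7.39 to 10.49, and was called in 0 of the 4 comparisons.

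HBB and AHSP gave no relation past the threshold at this number of fetuses. Pearson r was 0.28 (permutation p = 0.296, adjusted p = 0.355) and Spearman rho 0.25 (adjusted p = 0.524). Without the 2 fetuses farthest from the median of HBB, r was 0.44, within the slides it was 0.65 and 0.29, and on deviations from the group means it was 0.22. It was 0.58 among the 7 normoxia arrays, 0.20 among the 9 hypoxia arrays and 0.24 without hypoxia control replicate 1. An r that misses the threshold does not show that the genes are unrelated. Of 710 named genes that were well above background on at least 12 arrays, 124 had a higher r with AHSP than HBB had. The fetus with the highest HBB, hypoxia control replicate 5, was the fifth highest for AHSP, and the fetus with the lowest HBB, hypoxia + ketamine replicate 4, was the third highest for AHSP.

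The 2 HBB probes were related over all fetuses, with r = 0.76 (permutation adjusted p = 0.00273) and rho = 0.59 (adjusted p = 0.0511). The likeness lay mostly in the hypoxia fetuses, a difference that was not tested. Among the 9 hypoxia arrays r was 0.90 and among the 7 normoxia arrays it was -0.05, and without the 2 fetuses farthest from the median it was 0.51 (permutation p = 0.0587). The second HBB probe and the fetal probe gave r = 0.33, and the second HBB probe and AHSP gave r = 0.23, neither past the threshold.

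**Figure D3:**
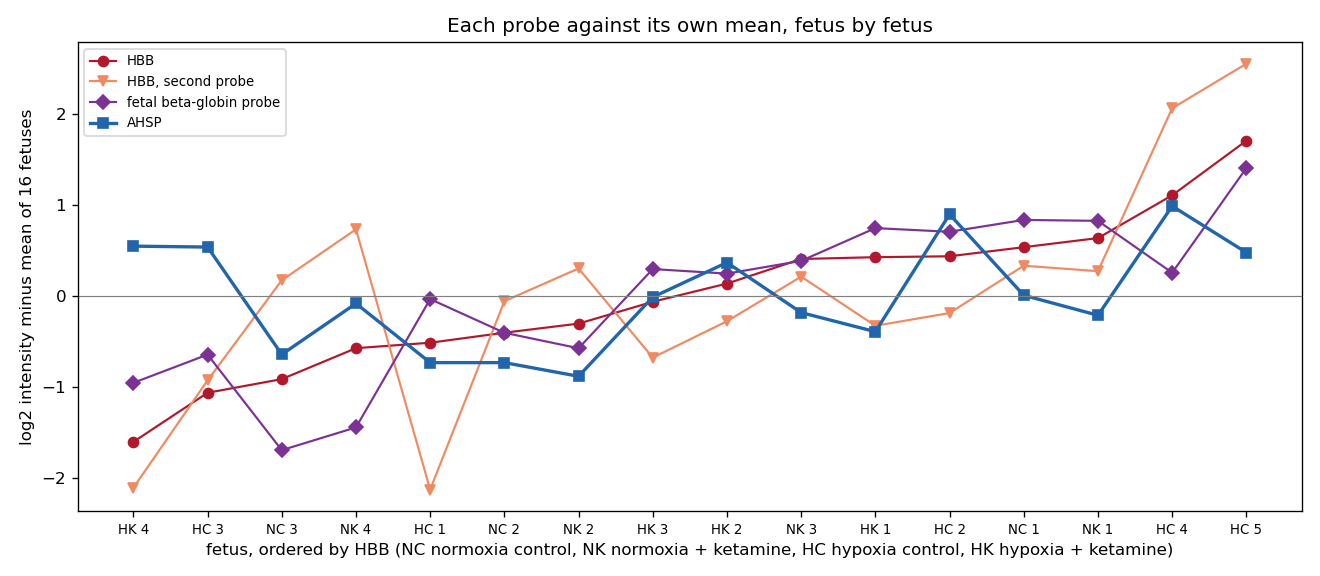
Each probe's log2 intensity minus its mean over 16 fetuses (vertical axis) is drawn for the fetuses in the order of HBB (horizontal axis). The fetal beta-globin probe follows HBB, with r = 0.84, whereas AHSP is above its mean in the 2 fetuses with the lowest HBB.

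Other genes of red cells gave little to set beside the members. Of 49 further genes of globin, heme, membrane and red cell development that were looked for, 2 were on the array with a name. UROD, an enzyme of heme synthesis that all cells use, lay between 12.92 and 13.46 and had r = 0.08 with HBB and 0.10 with AHSP. EPOR, the receptor of erythropoietin, lay between 6.84 and 7.45, was well above background on 14 arrays, and had r = 0.00 with HBB and -0.26 with AHSP. Neither was called in any of the 4 comparisons, and the log2 differences of hypoxia control from normoxia control were -0.14 (SE 0.108) for UROD and -0.13 (SE 0.127) for EPOR. UROD was called in the interaction (0.34, SE 0.151, limma's adjusted P = 0.772). It was not called there without hypoxia control replicate 1 (0.29, SE 0.145), but was with that fetus moved (0.33, SE 0.146, limma's adjusted P = 0.647). Among genes of the other lists, GFAP (-0.70), CD14 (-0.74) and DCN (-0.71) were called in the interaction too, against 6.35% of all probes. Without that fetus DCN was not called there. Of 6 genes of the response to oxygen and erythropoietin, 0 were called in hypoxia control against normoxia control, and EPO itself was well above background on 2 arrays. LDHA, a glycolysis enzyme of that list, was lower in normoxia + ketamine than in normoxia control (-0.29, SE 0.113, limma P = 0.022, exact permutation p = 0.0571) (not called, at -0.19, with the doubtful fetus moved) and higher in hypoxia + ketamine than in normoxia + ketamine (0.37, SE 0.105, limma P = 0.00307, exact permutation p = 0.0571). Of 3 genes of heme and iron handling, FTH1 read 16 on every array, the top of the scale, and CP was well above background on 1 array, so only TF could be compared (-0.78, SE 0.556, not called in hypoxia control against normoxia control).

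Of 8 markers of platelets, neutrophils, lymphocytes and monocytes on the array, 2 were called in the comparison where AHSP was, against 7.98% of all probes. SELP, an adhesion protein of platelets and activated vessel walls, was higher in hypoxia control than in normoxia control by 2.54 (SE 0.629, limma P = 0.00114, adjusted P = 0.317, exact permutation p = 0.0357), and by 2.37 without hypoxia control replicate 1. CD14, a receptor for bacterial products on monocytes and macrophages, was higher by 0.95 (SE 0.248, limma P = 0.00168, adjusted P = 0.320, exact permutation p = 0.0714), and by 1.01 without that fetus. ITGAM of the same cells was not called (-0.01, SE 0.0956) and was well above background on 4 arrays. The neutrophil granule gene LTF was not called (0.24, SE 0.385), nor were 4 of 4 lymphocyte markers, of which CD4 was well above background on 0 arrays. Endothelial markers were called in 0 of 4 cases. As a description over the 16 fetuses, the r of AHSP was 0.51 with SELP, 0.53 with CD14 and 0.62 with LTF, and that of HBB was 0.19, 0.06 and -0.32. Of 4 astrocyte markers on the array GFAP was called, higher by 0.79 (SE 0.164, limma P = 0.000254, exact permutation p = 0.0357) and by 0.74 without hypoxia control replicate 1. AQP4, GJA1 and FGFR3 were not called (0.03, 0.09 and 0.02), and FGFR3 was well above background on 1 array. TTR of the choroid plexus was well above background on 15 arrays and ran from 6.78, not well above background, to 16, the top of the scale. It was called lower in hypoxia control than in normoxia control (-4.30, SE 1.64, limma P = 0.0192, adjusted P = 0.538, exact permutation p = 0.107), and was -3.95 without hypoxia control replicate 1. TTR read 16, 15.55 and 9.33 in normoxia control, and the last of these lay within the hypoxia control range of 6.78 to 11.56. The difference therefore rests on 2 normoxia control fetuses, and readings at the ends of the scale leave its size uncertain. AQP1 was well above background on 1 array. The part of these cells in the AHSP result was not tested.

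SELP and CD14 were also called lower in hypoxia + ketamine than in hypoxia control. Their log2 differences were -1.74 (SE 0.578, limma's adjusted P = 0.480, exact permutation p = 0.0794) and -0.60 (SE 0.228, limma's adjusted P = 0.495, exact permutation p = 0.127). Without hypoxia control replicate 1 they were -1.57 and -0.66, both called, and with it moved SELP was not called (-1.57, SE 0.81). The astrocyte gene GFAP was called lower there too (-0.54, SE 0.15, limma's adjusted P = 0.408), and also without that fetus (-0.50). In that comparison AHSP was called only with that fetus left out or moved.

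By a rule that ranked 710 named genes by their Pearson r with the mean of centered HBB, AHSP and CA1 over the 16 fetuses, the genes most alike included MDD2 (0.71), LOC100037701 (0.70), MX1 (0.69) and SARS (0.66). The 3 least alike were SMAD2 (-0.66), ATP7B (-0.80) and RAN (-0.82). Apart from MX1 (log2 intensity 9.43 to 14.47), the genes named here varied little between fetuses. MDD2 ran from 10.52 to 10.95, LOC100037701 from 9.89 to 10.60 and SARS from 11.60 to 12.08. SMAD2 ran from 8.78 to 9.21, ATP7B from 7.62 to 7.93 and RAN from 13.29 to 13.65. CA1 enters that mean only with readings not above background, and the mean of HBB and AHSP alone gave r = 1 with it and shared 4 of its 5 most alike genes. The ranking was repeated for HBB and AHSP each, a step added after the data were seen. These r values are the extremes of many genes from the same arrays and are given with no test.

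The genes most like AHSP included PSMB8, the beta-2-microglobulin gene (LOC443295), MX1 and CXCL10, with r of 0.87, 0.80, 0.78 and 0.74. PSMB8 is a subunit of the immunoproteasome, beta-2-microglobulin is the light chain of class I molecules, MX1 is an antiviral protein and CXCL10 is a chemokine. On deviations from the group means r was 0.77 for PSMB8, 0.66 for LOC443295, 0.79 for MX1 and 0.55 for CXCL10. Without hypoxia control replicate 1 r was 0.87, 0.80, 0.77 and 0.82. After normexp with 75th percentile scaling r fell to 0.42 for LOC443295. For PSMB8 r was 0.86 and 0.94 within the slides and 0.78 without the 2 fetuses farthest from the median of AHSP. With HBB these 4 genes had r of 0.23, 0.19, 0.42 and 0.25.

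PSMB8 shows the likeness fetus by fetus. In hypoxia control it was 7.87, 9.87, 9.05, 9.77 and 8.53 on the log2 scale, with the lowest value in replicate 1, where AHSP was also lowest. In hypoxia + ketamine it was 8.17, 9.05, 8.23 and 8.65, and replicate 1 of that group was again the lowest for both genes. Over the normoxia fetuses PSMB8 lay between 7.67 and 7.99. Between hypoxia control and normoxia control PSMB8 differed by 1.22 (SE 0.357, limma P = 0.00398, adjusted P = 0.386, exact permutation p = 0.0714), and by 1.5 (SE 0.281) without hypoxia control replicate 1.

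The genes most like HBB were LOC100191035, DCN, APOA1, BGN and TIMP1, with r of 0.73, 0.70, 0.67, 0.66 and 0.63. DCN and BGN are proteoglycans of connective tissue matrix, APOA1 is the main protein of high-density lipoprotein, and TIMP1 inhibits enzymes that cut the matrix. The relations were close on 1 slide and weak on the other, a difference that was not tested. Within slide 1 r was 0.16, 0.14, 0.20, 0.14 and 0.13, and within slide 2 it was 0.93, 0.84, 0.81, 0.85 and 0.82. Slide 2 held both of the 2 fetuses farthest from the median of HBB. Without these 2 fetuses r over both slides was 0.52, 0.44, 0.44, 0.46 and 0.29. DCN was lower in hypoxia + ketamine than in hypoxia control (-0.66, SE 0.209, limma P = 0.00668, exact permutation p = 0.0317, and -0.67 without hypoxia control replicate 1), a comparison in which HBB was not called. With AHSP the r of LOC100191035, DCN, APOA1 and BGN was -0.05, -0.08, -0.06 and 0.08, and that of TIMP1 was 0.41.

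**Figure D4:**
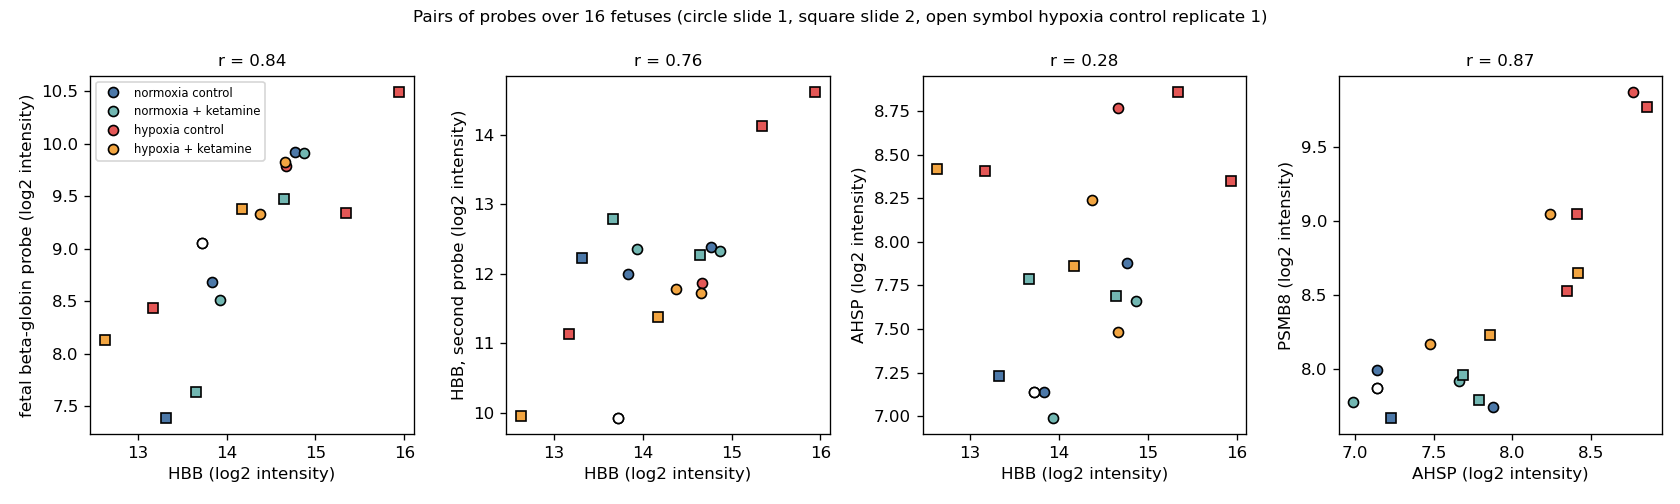
Log2 intensities are plotted for 4 pairs of probes over 16 fetuses, with HBB on the horizontal axis of the first 3 panels and AHSP on that of the last. HBB goes with the fetal beta-globin probe (r = 0.84), its r with AHSP is 0.28, and AHSP goes with PSMB8 (r = 0.87).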

How the data were processed

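RNA labeled with cyanine 3 was hybridized to 1-color Agilent sheep arrays. The authors deposited each array's spot intensity from Feature Extraction (version 10.1.1.1 per the file headers), not yet normalized, and a table of log2 values after their own background correction and quantile normalization, used only as an alternative. The submitters' processing notes name limma and R 2.15.1.

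In R 4.3.3 with limma 3.58.1, mean signals were corrected by normexp (offset 50) on the local background, and log2 values were quantile normalized after leaving out 536 control spots per array and 222 flagged spots in all. On 3 arrays normexp estimated a background far below 0 (-246 to -743), which lifted their dim spots (5th percentile 333 to 993, against 62.1 to 67.3 on the other 13). Quantile normalization keeps each array's order but compresses dim values, so background subtraction was added as an alternative after seeing this. Probes were averaged (15008), and no dim probe was filtered. Precision is limited by how many arrays there are. The probe with the highest mean stood for a gene. Of the probes, 1656 had a name, by accession, symbol or gene ID of the sheep table (ARS-UI_Ramb_v3.0) or, for 274, by the files alone.

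All groups were fitted together and tested with limma's moderated test. Exact permutation tests are two-sided and double the smaller tail. Correlations used 1e+05 permutations, or exact ones within slides. On simulated data for hypoxia control against normoxia control, 94% of the probes changed by 1 on the log2 scale were called, as were 5.02% of the unchanged ones, out of 14876 with 200 changed. The changed probes were drawn at random. The spread around the group means was larger for HBB than for 99.5% of all probes, and for AHSP than for 98.1%. The share of 94% therefore does not carry over to the members. Named genes were all member probes, the listed genes on the array, and the 5 highest and 3 lowest by likeness to the members, of which 1 is not reported here. The members and lists were chosen with earlier results of these data known. Alternatives were other background corrections and scalings, a filter on dim probes, flagged spots kept, a block of slide or of replicate number, fits of the compared groups alone, array weights, the deposited table, the other label of hypoxia control replicate 1, and each array left out. Figures were drawn with Python 3.11.15 and matplotlib 3.10.9.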

Additional observations from a re-analysis of the deposited data

Results flagged for a closer look

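Among 15 sets of at least 4 fetuses in which a member or the fetal beta-globin probe was measured, 2 held a fetus far from the others of its group, and chance alone marks about 1 group in 20. AHSP was 6.99 in normoxia + ketamine replicate 2, below 7.66 to 7.79 in the other fetuses of its group. On the overlapping AHSP probe, hypoxia control replicate 1, whose labels conflict, read 6.94 against 8.21 to 8.69 in the other hypoxia control fetuses, and the spot was not well above background.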

How the results depend on the processing

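The HBB comparisons kept direction and side of the threshold in 152 of 154 alternatives and the AHSP comparisons in 141 of 154, while r of HBB with AHSP lay between 0.14 and 0.65 and never passed the threshold. Differences below are on the log2 scale.

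AHSP in hypoxia control against normoxia control was no longer called on the scanner's processed signal with quantile normalization (1.58), after normexp with 75th percentile scaling (0.55) or by adjusted P (0.89). With normexp and 75th percentile scaling, ketamine in normoxia turned to -0.52 and the interaction to 0.50 for AHSP, and the median of all probes moved by -0.30 and 0.51. The calls fell there to 194, 41, 206, 324 and 184 probes for hypoxia, ketamine in normoxia, ketamine in hypoxia, hypoxia under ketamine and the interaction. This setting keeps the lifted dim spots of 3 arrays, and with background subtraction the counts were 1431, 340, 1217, 979 and 990. By adjusted P 0 probes were called in any of the 5. Ketamine in normoxia called 226 probes with the filter on dim probes and 560 with array weights, against 347.

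With hypoxia control replicate 1 moved to normoxia + ketamine, AHSP was called for ketamine in hypoxia (-0.60) and for hypoxia under ketamine (0.55), and the second HBB probe turned to -0.27 for ketamine in normoxia and was called for ketamine in hypoxia (-1.72). With only the 2 compared groups in the fit, that probe was called for hypoxia under ketamine (-1.23). The difference of hypoxia control from normoxia control on that probe, 0.13, turned to -0.01 with the slide as a block and -0.03 with array weights.

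The labels do not say whether same-numbered fetuses share more than a number. The correlation of deviations from the group means averaged 0.0907 for same-numbered pairs and -0.0258 for other pairs. The lowest for a same-numbered pair was -0.108, and 10 of 15 arrays correlated best with their own number. Whether these fetuses were paired was not tested. With the replicate block, AHSP was 0.74 (SE 0.367) and no longer called in hypoxia control against normoxia control and -0.02 for ketamine in normoxia, the second HBB probe was -0.60 in the former and the fetal probe 0.01 for ketamine in hypoxia.

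The causes of these changes were not tested.

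Leaving out 1 array at a time, HBB ran from -0.03 to 0.70 for ketamine in normoxia (turned without normoxia control replicate 3) and from -0.55 to 0.12 for hypoxia under ketamine (turned without hypoxia + ketamine replicate 4). AHSP ran from 0.75 to 1.18 for hypoxia, -0.02 to 0.35 for ketamine in normoxia and -0.60 to -0.13 for ketamine in hypoxia. The second HBB probe ran from -0.44 to 0.73 for hypoxia and from -1.72 to -0.55 for ketamine in hypoxia. The fetal probe ran from -0.42 to 0.84 for ketamine in normoxia, -0.50 to 0.09 for ketamine in hypoxia, -0.13 to 0.63 for hypoxia under ketamine and -1.10 to 0.16 for the interaction, and from 0.12 to 1.38 for hypoxia, where it was called without normoxia control replicate 1.

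CA1 has no value under any alternative, since its probes were not well above background on any array.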
